A study of Mus musculus with 8 samples.

Results

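The macrophage marker genes analysed here were Cd68, Csf1r, Cd163, Mrc1, Lyz2, Itgam, Cd74, C1qa, C1qb and C1qc, 10 genes of the 14012 in the count table. They were taken by gene symbol, and all 10 were found. Their RNA was measured in the quadriceps femoris, a large thigh muscle, of 4 Grpel1 flox/flox control mice and 4 skeletal muscle specific Grpel1 knockout mice, with 1 polyA RNA-seq library per mouse. All 8 mice, which were male, carried floxed Grpel1, which encodes a co-chaperone of the mitochondrial HSP70 import motor. In the knockout mice a tamoxifen-inducible Cre recombinase was driven by the human skeletal actin promoter (HSA-Cre), which is active in muscle fibres. Tamoxifen was injected on 5 consecutive days from the age of 5 weeks, and neither the age at collection nor tamoxifen treatment of the controls is stated for these libraries, so that tamoxifen and genotype cannot be told apart. The paper calls Grpel1 flox/flox littermates untreated in its account of body weight, and its weight curves hold floxed mice with and without tamoxifen. Macrophages are not the cells in which the human skeletal actin promoter is active.

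Macrophages of muscle are phagocytes that lie between the fibres, depend on signalling through the CSF1 receptor and are renewed in part from blood monocytes. After injury they clear dead fibres, present antigen, secrete complement component C1q and release factors that act on satellite cells. Markers of this cell type differ in what they report: CD163 and the mannose receptor are surface scavenger receptors of resident and repair-type macrophages, whereas CD68 is a protein of endosomes and lysosomes.

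The libraries held 16017565 to 20361144 counts. The marker genes together took 3394, 2180, 1671 and 3552 counts across control libraries 1 to 4 against 5165, 7964, 6288 and 8257 counts across knockout libraries 1 to 4. As a share of all counts this was 0.00894 to 0.0212% among controls against 0.0264 to 0.0485% among knockouts, without overlap. Every marker gene was counted in every library, from 24 counts (Itgam) to 2437 (Lyz2). Values below are CPM, counts per 1000000 over library sizes corrected for composition by TMM, a scaling that sets the bulk of genes equal between libraries. On that scale the summed level was 274, 143, 120 and 224 CPM among controls against 215, 365, 260 and 328 CPM among knockouts, and the groups overlapped. The scaling bears on every value because the 20 most abundant genes took 36.5 to 40.1% of counts among controls against 19.7 to 23.5% among knockouts. With library totals alone, the median over all genes was 0.73 in log2 fold change, against 0.065 with TMM, and the median over the marker genes was 1.39, against 0.71. Grpel1 itself had 861 to 1087 counts among controls against 1461 to 1658 among knockouts, with a log2 fold change of -0.066 (adjusted p = 0.49, edgeR), so the count of the whole gene does not check the labels and groups are named as labelled.

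Cd68 rose about 6-fold in the libraries labelled knockout, while no other marker gene passed the threshold of an adjusted p under 0.01 in edgeR's quasi-likelihood test. Lyz2, C1qa and C1qb had levels 1.81 to 2.08 times those of the controls with adjusted p between 0.019 and 0.030, and C1qc, Itgam, Csf1r and Mrc1 had smaller differences that the test did not separate from 0. For Cd74 the means were nearly equal and the interval of the log2 fold change reached from -0.61 to 0.54, and Cd163 had a lower mean. Thus 1 of 10 marker genes was called higher and 0 lower by edgeR (4 and 0 at an unadjusted p under 0.05), while 23.6% of all genes were called higher and 21.1% lower. The groups did not overlap for 1 of the 10, while 29% of all genes did not overlap in that direction and 24.4% in the other. At an adjusted p under 0.05 the count was 4 of 10, with DESeq2 at 0.01 it was 3 (Cd68, Lyz2 and C1qa), and with library totals alone it was 7. In the same order, 4436, 3251 and 8498 of all 14012 genes were called higher in these settings. In whole muscle, more cells of a type and more RNA per cell cannot be told apart.

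**Figure D1:**
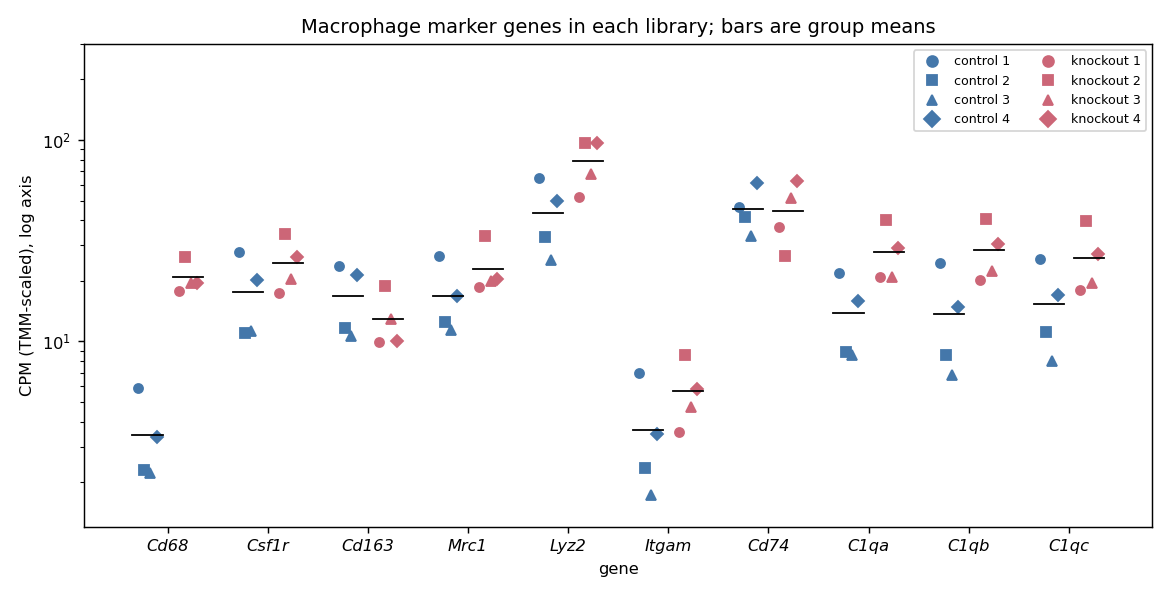
Level of each marker gene in each library, as TMM-scaled CPM on a log axis, with control libraries in blue, knockout libraries in red, a symbol for each replicate number and a bar for each group mean (n = 4). The groups are apart for Cd68, with 2.22 to 5.90 CPM in controls and 17.8 to 26.3 CPM in knockouts, and overlap for the other 9 genes.

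Cd68 encodes a heavily glycosylated protein of late endosomes and lysosomes that is used to stain macrophages in tissue sections. The gene (Entrez 12514) has 6 exons on the minus strand at chr11:69664213-69666170 of GRCm38. It had 73, 35, 31 and 53 counts across control libraries 1 to 4 against 428, 574, 473 and 493 counts across knockout libraries 1 to 4. This gave 5.90, 2.29, 2.22 and 3.34 CPM among controls against 17.8, 26.3, 19.5 and 19.6 CPM among knockouts. The lowest knockout was above the highest control, and control replicate 1 was the highest of its group. The mean rose from 3.44 ± 1.72 to 20.8 ± 3.74 CPM (SD, n = 4), a log2 fold change of 2.62 with a 95% interval of 2.01 to 3.22 (adjusted p = 2.4e-05, edgeR). It was past the threshold in each of the 8 fits that left out 1 library, at 2.46 to 2.98. Of all genes, 298 had a larger log2 fold change.

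C1q, the recognition molecule of the classical complement pathway, is built from 3 chains, and its genes lie in a row. C1qb, C1qc and C1qa (Entrez 12260, 12262 and 12259) follow each other on the minus strand within 18700 bases, at chr4:136880145-136886177, chr4:136889802-136892914 and chr4:136895916-136898844, each with 3 exons. C1qa had 21.9, 8.90, 8.52 and 15.9 CPM in control replicates 1 to 4 and 20.8, 40.3, 20.9 and 29.2 CPM in knockout replicates 1 to 4. C1qb had 24.4, 8.58, 6.80 and 14.9 CPM among controls against 20.1, 40.4, 22.3 and 30.4 CPM among knockouts. C1qc had 25.5, 11.1, 8.02 and 17.0 CPM among controls against 17.97, 39.5, 19.4 and 27.1 CPM among knockouts. In all 3 genes control replicate 1 lay above the lowest knockout, and the other controls lay below every knockout. The log2 fold changes were 1.02 for C1qa (95% interval 0.30 to 1.73, adjusted p = 0.019), 1.06 for C1qb (0.24 to 1.88, 0.030) and 0.76 for C1qc (-0.02 to 1.54, 0.086) by edgeR with Benjamini-Hochberg adjustment. Without control replicate 1, C1qa and C1qb passed the threshold at 1.32 and 1.48, as did Lyz2 at 1.11, which made 4 of 10 called. In that fit 3002 of all 14012 genes were called higher.

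Lyz2 encodes the lysozyme that macrophages and neutrophils secrete against bacterial walls, and it was the most abundant marker gene per length in both groups. The gene (Entrez 17105, 4 exons, minus strand) lies at chr10:117277541-117282272. It had 64.7, 33.0, 25.4 and 49.97 CPM in control replicates 1 to 4 and 52.1, 96.9, 67.6 and 96.9 CPM in knockout replicates 1 to 4, and only control replicate 1 reached into the range of the knockouts. The log2 fold change was 0.86 (95% interval 0.21 to 1.51, adjusted p = 0.027, edgeR). Its close paralogue Lyz1 had 15 to 40 counts among controls against 42 to 86 among knockouts. Because read pairs that mapped to several places were left out by the authors, reads shared by the 2 lysozyme genes are in neither count, and both values are uncertain to that extent.

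Csf1r, Mrc1 and Itgam are surface receptors. Csf1r encodes the receptor for CSF1 and IL-34, on which survival of most tissue macrophages depends, and the gene (Entrez 12978, 22 exons) lies on the plus strand at chr18:61105572-61131139. Its levels were 27.95, 11.1, 11.3 and 20.1 CPM in control replicates 1 to 4 and 17.5, 34.1, 20.4 and 26.2 CPM in knockout replicates 1 to 4. The groups overlapped widely, and the log2 fold change was 0.48 with an interval of -0.20 to 1.17 (adjusted p = 0.20, edgeR). Mrc1, the mannose receptor CD206 (Entrez 17533, 30 exons, plus strand, chr2:14229414-14332023), had 26.5, 12.4, 11.5 and 16.8 CPM among controls against 18.6, 33.2, 19.9 and 20.3 CPM among knockouts. Control replicate 1 and knockout replicate 2 were the highest of their groups, and the log2 fold change was 0.46 (-0.15 to 1.07, adjusted p = 0.17, edgeR). Itgam, the CD11b chain of an integrin that binds complement fragments and is shared by macrophages, monocytes and neutrophils, had 6.95, 2.36, 1.72 and 3.47 CPM among controls against 3.54, 8.56, 4.75 and 5.80 CPM among knockouts. The highest control was above 3 of the 4 knockouts, and the log2 fold change was 0.66 (-0.24 to 1.56, adjusted p = 0.19, edgeR). In GENCODE vM21 the span of Itgam (Entrez 16409, 30 exons, plus strand, chr7:128062640-128118491) overlaps the coding gene Gm49368 on the same strand, and how the authors' counting treated reads shared with it is not stated.

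Cd163 and Cd74 had the differences smallest in size. Cd163 encodes the scavenger receptor for haemoglobin bound to haptoglobin and is a marker of resident macrophages (Entrez 93671, 17 exons, plus strand, chr6:124304651-124330527). It had 23.7, 11.7, 10.6 and 21.5 CPM in control replicates 1 to 4 and 9.88, 18.9, 12.9 and 10.1 CPM in knockout replicates 1 to 4, and the groups overlapped. The log2 fold change was -0.38 (95% interval -1.04 to 0.27, adjusted p = 0.28, edgeR), and with library totals alone it was 0.29, again short of the threshold. Cd74 encodes the invariant chain that guides MHC class II molecules to endosomes and is made by B cells and dendritic cells as well (Entrez 16149, 9 exons, plus strand, chr18:60803849-60812652). It had 46.7, 41.2, 33.6 and 61.0 CPM among controls against 37.1, 26.6, 51.8 and 62.7 CPM among knockouts. The lowest and the highest library were both knockouts, and the log2 fold change was -0.03 (-0.61 to 0.54, adjusted p = 0.92, edgeR), or 0.62 with library totals alone.

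**Figure D2:**
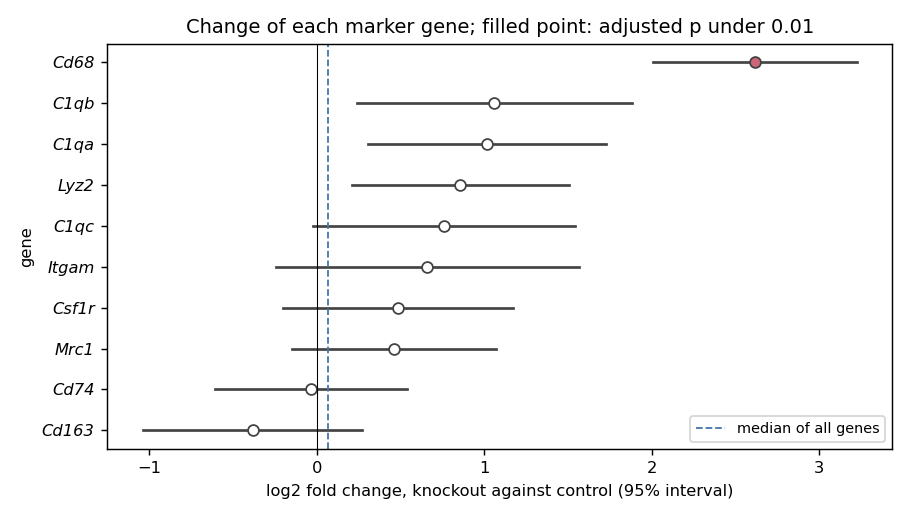
Log2 fold change of each marker gene, knockout against control, from edgeR on 4 libraries per group, with 95% intervals as horizontal lines, a filled point for an adjusted p under 0.01 and a dashed line at the median of all genes (0.065). Cd68 stands at 2.62, with the lower end of its interval at 2.01, above the upper ends of the other 9, and the intervals of C1qb, C1qa and Lyz2 lie above 0 while those of the other 6 genes cover it.

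Per kilobase of exon, a scale on which genes can be compared, mean levels in the controls ran from 40.9 CPM per kb for Lyz2 and 32.2 for Cd74 through 12.8 to 14.6 for the C1q genes to 4.54 for Csf1r, 3.75 for Cd163, 3.16 for Mrc1, 2.76 for Cd68 and 0.774 for Itgam. In the knockouts Lyz2 was again first at 74.1 CPM per kb, and Cd68 reached 16.7 CPM per kb, above Csf1r (6.33), Mrc1 (4.33), Cd163 (2.88) and Itgam (1.21). The spread between libraries was wide, with SDs (n = 4) among controls of 5.89 to 7.49 CPM per kb for the C1q genes, 1.29 to 2.08 for Csf1r, Cd163, Mrc1 and Cd68 and 16.7 for Lyz2, but it was largely shared by the genes of a library. Within libraries Csf1r, Cd163, Mrc1 and Cd68 followed each other in this order in all 4 controls, and Lyz2 was above Cd74 in all 4, by as little as 24.04 against 23.72 CPM per kb in control replicate 3. The order of the C1q genes was not the same in every control, since C1qc was first in control replicates 1, 2 and 4 and C1qa in control replicate 3. Among knockouts Cd68 was above Csf1r and below C1qc in all 4 libraries, at 14.3, 21.1, 15.7 and 15.7 CPM per kb in replicates 1 to 4 beside 17.1, 37.5, 18.4 and 25.7 for C1qc.

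The marker genes shared an order of libraries within each group. Control replicate 1 was the highest control for 9 of the 10 genes, with control replicate 4 highest for Cd74, and control replicate 3 was the lowest for 9, with control replicate 2 lowest for Csf1r. Among knockouts, replicate 2 was the highest for 8 genes and replicate 4 for Lyz2 and Cd74, while replicate 1 was the lowest for 9 and replicate 2 for Cd74. The coefficient of variation in the controls ran from 25.4% for Cd74 to 64.4% for Itgam, and in the knockouts from 18% for Cd68 to 38% for C1qc. The level of fat cell RNA also varied between libraries: 10 adipocyte markers summed to 1806, 1235, 255 and 1851 CPM across control libraries 1 to 4 against 3060, 1583, 786 and 1749 CPM across knockout libraries 1 to 4, so that control replicate 3 was low in both. Among knockouts the orders differed, as replicate 1 had the highest adipocyte sum and was the lowest for 9 marker genes, and replicate 2, the highest for 8, had a lower sum than replicates 1 and 4. With the mean log2 CPM of these markers as a covariate, Cd68 had a log2 fold change of 2.49 and was the only marker gene called, and the median of the 10 was 0.50.

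Because the marker genes shared an order of libraries, each marker gene was also set against Csf1r within its library, which removes the library size and the scaling. Cd68 had 0.212, 0.209, 0.199 and 0.167 counts per count of Csf1r in control replicates 1 to 4 and 1.02, 0.771, 0.956 and 0.749 in knockout replicates 1 to 4. The spread within groups was small against the gap between them, a difference of 2.14 in mean log2 ratio. Cd163 had lower ratios, with 0.847, 1.06, 0.937 and 1.07 counts per count of Csf1r in the controls and 0.566, 0.553, 0.633 and 0.385 in the knockouts, a difference of -0.89. Against Mrc1, the other scavenger receptor, Cd163 had 0.893, 0.942, 0.925 and 1.28 counts among controls against 0.532, 0.569, 0.648 and 0.496 among knockouts, a difference of -0.84.

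C1qa had 0.784, 0.805, 0.754 and 0.790 counts per count of Csf1r in control replicates 1 to 4 and 1.19, 1.18, 1.02 and 1.12 in knockout replicates 1 to 4, so the controls lay within a narrow range and every knockout above it. C1qb had 0.873, 0.776, 0.603 and 0.740 among controls against 1.15, 1.19, 1.09 and 1.16 among knockouts. The differences in mean log2 ratio were 0.52 for C1qa and 0.63 for C1qb. Within the C1q locus, C1qc had 1.05, 1.30, 1.18 and 1.14 counts per count of C1qb in the controls and 0.894, 0.977, 0.869 and 0.889 in the knockouts, a difference of -0.36. For these 6 ratios the groups did not overlap, each with p = 0.0286 by the two-sided exact permutation test, the smallest that 4 against 4 libraries can give, and 0.0571 after Benjamini-Hochberg adjustment over the 12 ratios tested, so none passed 0.05. The other 6 ratios overlapped between groups: Mrc1 to Csf1r differed by -0.05, Lyz2 by 0.36, Itgam by 0.22, Cd74 by -0.62 and C1qc by 0.27, and C1qa to C1qb by -0.11, with exact permutation p from 0.0571 to 0.714. With Cd68 as the denominator, all 8 remaining marker genes were lower in the knockouts, with differences in log2 ratio from -1.51 for C1qb to -3.03 for Cd163 and no overlap. These 8 values all carry the rise of Cd68 itself and are given as a description, with no test.

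**Figure D3:**
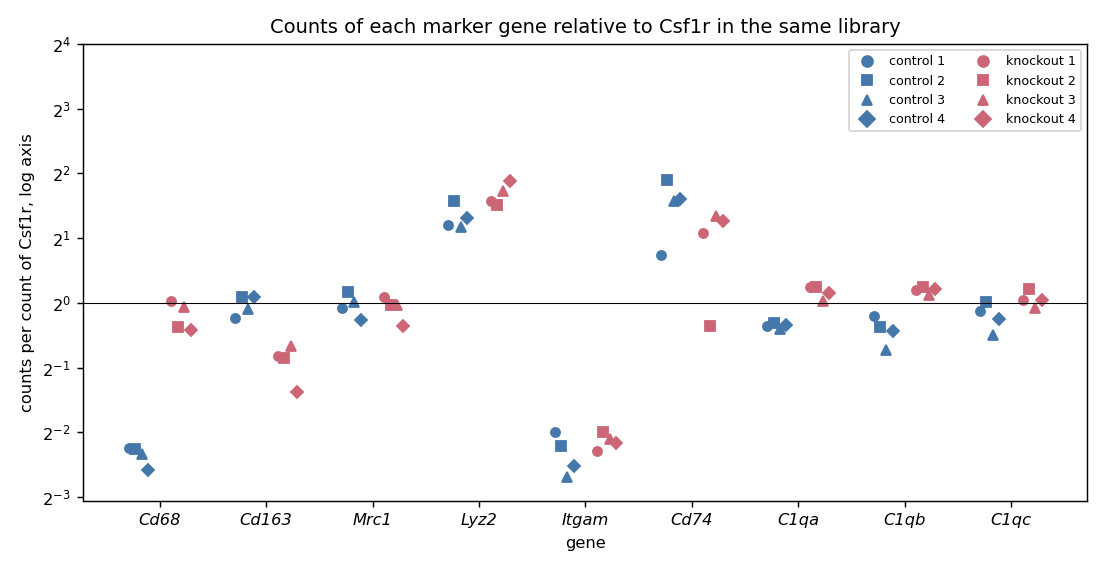
Counts of each marker gene per count of Csf1r in the same library, on a log2 axis, with a symbol for each replicate number, controls in blue and knockouts in red. Cd68, C1qa and C1qb lie higher in all 4 knockouts than in any control and Cd163 lower, while Mrc1, Lyz2, Itgam, Cd74 and C1qc overlap.

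The genes whose levels ran most like those of C1q over the 8 libraries were ranked by the root mean square difference of centred log2 CPM from the average of C1qa, C1qb and C1qc, among 11048 genes with a mean count of at least 50. Outside C1q itself, the 5 nearest were Laptm5, a lysosomal membrane protein of leukocytes (0.163), Adgre1, the F4/80 antigen (0.171), Lyz2 (0.176), Itgam (0.190) and Fcgr2b, the inhibitory Fc receptor (0.208). Csf1r was 15th at 0.259 and Mrc1 33rd, whereas Cd163 was 4478th, Cd74 6740th and Cd68 7002nd at 0.847. Cd163, Cd74 and Cd68 were thus far from the C1q genes in this ranking, and Lyz2 and Itgam next to them. The difference was taken over both groups, so a gene with a larger or smaller fold between them also lies further away. Within each group Cd68 had the same order of libraries as C1qa, C1qb and C1qc.

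Promoter windows are printed for Cd68 and Cd163, whose ratios to Csf1r differed between the groups in opposite directions. They are also printed for the neighbours C1qb and C1qc, which had the same order of libraries within each group. Each is the 250 bases before the RefSeq start on GRCm38.p6, read 5′ to 3′ on the strand of the gene, with GAGGAA in capitals, the core of the site for the myeloid factor PU.1, or its reverse complement TTCCTC where the match is on the opposite strand. The windows are chr11:69666171-69666420 for Cd68, chr6:124304401-124304650 for Cd163, chr4:136886201-136886450 for C1qb and chr4:136892915-136893164 for C1qc.
Cd68: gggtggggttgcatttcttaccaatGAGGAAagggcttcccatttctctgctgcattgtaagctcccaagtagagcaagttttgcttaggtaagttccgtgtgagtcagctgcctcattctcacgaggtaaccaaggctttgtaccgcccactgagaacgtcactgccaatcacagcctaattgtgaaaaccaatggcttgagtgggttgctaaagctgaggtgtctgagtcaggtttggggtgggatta
Cd163: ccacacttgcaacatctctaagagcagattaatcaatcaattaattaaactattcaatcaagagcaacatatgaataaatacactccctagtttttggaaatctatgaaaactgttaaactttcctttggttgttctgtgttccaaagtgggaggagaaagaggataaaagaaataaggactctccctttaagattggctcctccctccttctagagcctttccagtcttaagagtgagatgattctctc
C1qb: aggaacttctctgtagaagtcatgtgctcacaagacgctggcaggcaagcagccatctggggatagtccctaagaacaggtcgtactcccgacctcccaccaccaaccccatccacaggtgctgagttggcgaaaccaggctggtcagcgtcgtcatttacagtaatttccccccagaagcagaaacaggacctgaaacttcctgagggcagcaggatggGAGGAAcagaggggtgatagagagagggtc
C1qc: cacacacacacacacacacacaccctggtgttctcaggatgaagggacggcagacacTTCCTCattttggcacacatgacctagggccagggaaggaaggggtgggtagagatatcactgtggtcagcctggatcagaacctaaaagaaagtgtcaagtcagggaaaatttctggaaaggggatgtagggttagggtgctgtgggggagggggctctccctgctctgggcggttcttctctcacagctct
The match begins 225 bases before the start in Cd68, 30 in C1qb and 193 in C1qc, there on the opposite strand, and these letters are not in the window of Cd163. RefSeq windows were at hand for 7 of the 10 marker genes, and 5 of these 7 (Cd68, Mrc1, Itgam, C1qb and C1qc) held GAGGAA on either strand, against 23.3% of 32851 windows in all. The AP-1 motif TGANTCA was in 1 of 7, Cd68, against 6.75% of windows, and the E-box CACGTG in none, against 6.02%. These counts describe letters only.

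Other genes of macrophages were taken from lists. The counts called by edgeR in each list stand beside 23.6% of all genes called higher and 21.1% lower. With library totals alone, 8498 of all 14012 genes were called higher. Of 24 further genes expressed across macrophages, 13 were called higher and 0 lower by edgeR (19 and 0 at an unadjusted p under 0.05, 15 and 0 with DESeq2), and their median was 1.02 in log2 fold change against 0.065 over all genes. Itgax, the CD11c integrin chain, rose by 3.54 on the log2 scale (adjusted p = 6.5e-07) and Ctss, the lysosomal protease cathepsin S, by 2.47 (adjusted p = 0.00013), both by edgeR. Lgmn, a lysosomal endopeptidase, rose by 0.95 and Cyba, a subunit of the phagocyte oxidase, by 0.61, and Cyba was short of the threshold when any one of controls 1, 2 and 3 or knockouts 2 and 4 was left out. Adgre1 and Laptm5 had log2 fold changes of 0.99 and 0.97 with adjusted p of 0.016 and 0.013 (edgeR). The summed level of the 24 genes was 82.6 to 141 CPM among controls against 187 to 302 CPM among knockouts. The count of called genes was 8 without control replicate 2, control replicate 3 or knockout replicate 4, and 23 with library totals alone.

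Of 19 tested genes of resident macrophages, 0 were called higher and 1 lower by edgeR, and the median log2 fold change was 0.18. The counts were also 0 and 1 at an unadjusted p under 0.05 and with DESeq2 or limma voom. The gene called lower was Cbr2, a carbonyl reductase, which fell by 1.70 on the log2 scale (adjusted p = 6.7e-05, edgeR). Their summed level was 211 to 300.2 CPM among controls against 186 to 296 CPM among knockouts. With library totals alone 3 of the 19 were called higher. Cd163 and Mrc1 are close to this list in role, and neither was called by edgeR with TMM.

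The list of repair and lipid-handling macrophage genes held 8 genes called higher and 1 lower of 20, with a median of 1.33, and 16 were called higher with library totals alone. Lgals3, galectin-3, rose by 4.10 (adjusted p = 3.2e-07, edgeR) from 4.11 to 69.7 CPM. Mmp12, macrophage elastase, had no count in any control and 50 to 91 counts in each knockout, at least 11.8-fold higher when the controls are set at 3 counts per library. Fabp5, a fatty acid binding protein, rose by 1.40 and Igf1, a growth factor that muscle also makes, fell by 1.49. Fabp5 had 1240, 832, 419 and 742 counts across knockout libraries 1 to 4. It was highest in replicate 1, which had the highest adipocyte sum and was the lowest knockout for 9 marker genes. The part of fat cells in the level of Fabp5 was not tested. Trem2, a lipid-sensing receptor of phagocytes that was chosen after its values were seen, had 9, 3, 2 and 3 counts across control libraries 1 to 4 against 46, 113, 58 and 95 across knockout libraries 1 to 4, with a log2 fold change of 3.44 (adjusted p = 0.00023, edgeR). As with Cd68, the lowest knockout was well above the highest control.

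Of the ligands, receptors and transcription factors around Csf1r, 2 of 13 tested were called higher and 3 lower, beside 23.6% and 21.1% of all genes. With library totals alone 7 were called higher. Runx1, a transcription factor of blood cells that denervated muscle fibres also express, rose by 3.39, and Cebpb, a factor of myeloid and other cells, rose by 0.75. Nr4a1, which acts in monocytes and macrophages as well as elsewhere, fell by 1.86, and Maf, outside the rule for named genes, fell by 1.31. The ligands of CSF1R were chosen for their role. Csf1 had a log2 fold change of 0.21 (adjusted p = 0.30) and Il34 of -0.62 (adjusted p = 0.011, edgeR). With library totals alone the log2 fold change of Il34 turned to 0.043, and with DESeq2 Il34 was past the threshold.

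Cd74 stood beside 6 tested MHC class II genes, of which 0 were called in either direction by edgeR, DESeq2 or limma voom at 0.01, and 1 was lower at an unadjusted p under 0.05 in edgeR, with a median of 0.069. Their sums were 42.4 to 81.1 CPM among controls against 41.2 to 87.5 CPM among knockouts. The C1q genes stood beside 21 tested complement genes, 3 called higher and 3 lower, with a median of -0.22. Of all genes, 23.6% were called higher and 21.1% lower. C3ar1, the receptor for C3a, rose by 1.52 and Masp1, a lectin pathway protease, by 1.09, whereas C7, a part of the membrane attack complex, fell by 3.49 and Clu, the complement inhibitor clusterin, by 2.52 (adjusted p from 4.3e-05 to 0.0029, edgeR). Outside the rule for named genes, Cd46, a membrane cofactor protein, was also called higher at 1.01 and Cd93, which endothelium makes, lower at -0.88. With DESeq2 6 of the 21 were called lower, 5 were without control replicate 3, and without knockout replicate 4 only 1 was called higher.

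Of 19 chemokines, cytokines and their receptors tested, 7 were called higher and 2 lower, with a median of 0.61. Cxcl10, a chemokine induced by interferon, rose by 4.34 (adjusted p = 9e-06) and Cxcl16, a chemokine and scavenger receptor of macrophages, by 1.09 (adjusted p = 0.0071), and Cxcl12 and Cxcl14 fell by 0.74 and 0.93 (edgeR), although the last 3 were short of the threshold under some alternatives. Of 12 monocyte genes, 2 were called higher and 1 lower, beside 23.6% and 21.1% of all genes, with a median of 0.46. S100a4, a calcium-binding protein of monocytes and fibroblasts, rose by 1.54, Ifitm3, an interferon-induced membrane protein, rose by 0.39, and Ace, angiotensin-converting enzyme, which vessels also express, fell by 0.89. Ifitm3 was short of the threshold without any one of controls 2, 3 and 4 or knockouts 1, 2 and 4.

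**Figure D4:**
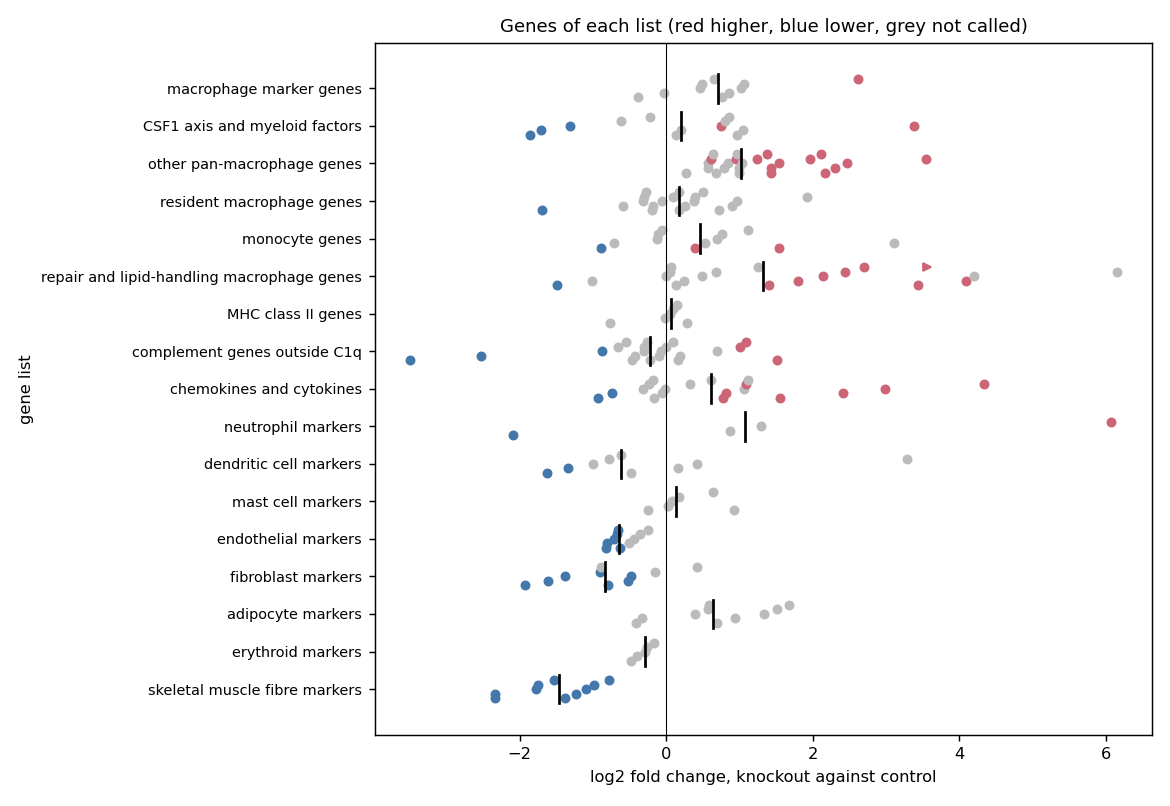
Log2 fold change (knockout against control, edgeR, 4 libraries per group) of each tested gene of the marker list and of the lists with 4 or more tested genes, with red for genes called higher and blue for genes called lower at an adjusted p under 0.01, grey for genes not called, a triangle for Mmp12 at its lower bound and a black bar for the median. Called genes lie on the right for the other pan-macrophage list (13 of 24). The repair list has 8 of 20 called on the right and 1, Igf1, on the left, and the resident list has 1 called gene, on the left.

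Markers of other cell types were read in the same libraries, again beside 23.6% of all genes called higher and 21.1% lower by edgeR. The neutrophil list, of which 4 of 13 genes were tested, summed to 1.93 to 9.13 CPM among controls against 18 to 38.4 CPM among knockouts, with S100a8, a calprotectin subunit also made by monocytes, higher by 6.07 on the log2 scale (adjusted p = 1.5e-05, edgeR). S100a8 made up this gap in the sum, with means of 0.366 and 22.8 CPM, whereas S100a9, its partner in calprotectin, had means of 0.587 and 1.03 CPM and Csf3r, the receptor for G-CSF, 0.659 and 1.56 CPM, neither of them called (both chosen after their values were seen). The gene called lower, Mmp9, was chosen after its values were seen, with 9 to 61 counts in controls and 6 to 17 in knockouts. Among the fits that left out 1 library, Mmp9 kept its call only without control replicate 3. It was also not called with library totals alone, limma voom or the block. Lyz2 and Itgam are also made by neutrophils, and the part of neutrophils in their levels was not tested. Dendritic cell markers had 0 of 9 called higher and 2 lower, of which Cd24a, a surface glycoprotein of several cell types, fell by 1.63 and Cd209a by 1.34 (edgeR; 1 higher and 3 lower at an unadjusted p under 0.05). T and NK cell markers had 0 of 2 called higher and 1, Cd3e with 2 to 25 counts, lower (1 and 1 at an unadjusted p under 0.05; 0 lower without any one of controls 1, 2 and 3 or knockouts 2, 3 and 4), and the 1 B cell marker tested was not called. Mast cell (6 tested), adipocyte (10 tested) and erythroid markers (5 tested) had 0 called in either direction by edgeR, DESeq2 or limma voom, and at an unadjusted p under 0.05 only 1 adipocyte gene differed, upwards.

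Among markers of the tissue itself, all 10 muscle fibre markers fell, from 250385 to 333956 CPM in sum in the controls to 80139 to 112415 CPM in the knockouts. Among them Myh4 and Mybpc2, of fast fibres, fell by 2.34 and 2.33 and Mylpf and Ryr1 by 0.99 and 0.79 on the log2 scale. Endothelial markers had 6 of 10 called lower, with Cdh5, Kdr, Pecam1 and Tek at log2 fold changes of -0.82, -0.81, -0.66 and -0.63, and fibroblast markers had 7 of 10 called lower (4 without any one of knockouts 1, 2 and 4), with Col1a1 and Col1a2 at -1.92 and -1.61 and Dcn and Gsn at -0.52 and -0.48. With library totals alone 0 endothelial and 1 fibroblast marker were called lower, and Pecam1, Tek, Dcn and Gsn were not below 0. A smaller share of fibre RNA in a library and a larger share of other RNA cannot be told apart by CPM, and the ratios within the marker genes are the values that do not depend on it.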

How the data were processed

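PolyA RNA of quadriceps femoris from 8 mice was sequenced as read pairs from strand-specific libraries. The raw counts per gene were deposited by the authors, made with Rsubread 2.6.4 on exons after mapping to GRCm38 by STAR 2.5.4b, with cutadapt for trimming and bcl2fastq2 2.20.0.422 for the reads. Duplicate, chimeric and multimapping reads and reads with a mapping quality under 10 were left out, as were genes with fewer than 50 reads in total. The annotation release and the use of strand in counting are not given in the sources used here. The 8 FPKM columns and the columns of the authors' own comparison (DESeq2 1.32.0 fold changes, p-values and means) were not used, and the exon widths in the deposited table served for CPM per kb.

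All 14012 genes were tested with edgeR 4.0.16 (R 4.3.3; TMM, quasi-likelihood test, group as the only term, Benjamini-Hochberg over all genes, adjusted p under 0.01). Intervals are at 95%. Ratios of counts, each with 0.5 added, were tested on all 70 ways to assign the libraries, an exact two-sided permutation test. Libraries came from separate mice, and pairs within a group differed by more than counting noise. 3 counts, the limit that a count of 0 allows, were 0.119 to 0.242 CPM, for counting error only. Alternatives used limma 3.58.1, DESeq2 1.42.0, other scalings, a filter, a block, a covariate, another threshold and each library left out. The edgeR, DESeq2 and limma voom fits were tried on simulated counts, and the permutation test on made-up values only. The simulated counts changed few genes and lacked the difference in composition between the groups, so they do not bear on the scaling. The genes named are the 10 marker genes, up to 2 called genes at each end of each list (whose mean count in the group with more reached 50), and the 5 genes most like C1q. The marker genes and lists were chosen with earlier results of these data known. Listed genes outside the table were not analysed here. The values of 1 gene that the rule names are not reported here.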

Additional observations from a re-analysis of the deposited data

Results flagged for a closer look

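Each group of 4 libraries was searched for a highest or lowest library that stood far from the rest by Dixon's criterion, and 6 of 80 groups had one, where chance gives about 1 in 20. In 3 of them knockout replicate 2 was the high library: Mrc1 at 33.2 CPM against 18.6 to 20.3 in the other knockouts, the resident macrophage genes at a sum of 296 CPM against 186 to 199, and the mast cell markers at 21.8 CPM against 10.5 to 12.2. Without that library the log2 fold change of Mrc1 was 0.22, the lowest of the 8 fits that each left out 1 library. Control replicate 1 was the library apart in 2, with 9.13 CPM of neutrophil markers against 1.93 to 2.58 in the other controls, and 0.0808 CPM of the B cell marker Jchain against 0.429 to 0.458, which is 1 count against 6 or 7. Control replicate 4 had 1.28 counts of Cd163 per count of Mrc1 against 0.893 to 0.942 in the other controls, which lies further from the knockouts than they do.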

How the results depend on the processing

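Cd68 kept its call in every fit across genes: other scalings, the filter, DESeq2, limma voom, the block, the adipocyte covariate and each library left out. With library totals alone 7 marker genes were called higher, with log2 fold changes of 1.16 for Csf1r, 1.14 for Mrc1, 1.53 for Lyz2, 1.70 for C1qa, 1.74 for C1qb and 1.44 for C1qc beside Cd68, while Cd163 and Cd74 turned to 0.29 and 0.62 without a call. Over all genes that scaling gave 8498 called higher and 873 lower, against 3303 and 2962, and over the 8 pathway lists 67 and 7, against 35 and 11. Among named genes Tek (0.031), Pecam1 (0.00066), Gsn (0.18), Dcn (0.15) and Il34 (0.043) turned sign there. DESeq2 called 3 marker genes higher, with Lyz2 at 0.81 and C1qa at 0.96, and 17 pathway genes lower. Of all genes it called 3251 higher. At an adjusted p under 0.05, 4 marker genes were called higher (Lyz2 at 0.86, C1qa at 1.02 and C1qb at 1.06 beside Cd68) and 18 pathway genes lower, against 11 at 0.01. Of all genes, 4436 were called higher at 0.05.

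Leaving out each library in turn gave 1 to 4 marker genes called higher, the 4 without control replicate 1. Over all genes the count called higher in these fits was 2596 to 3005. The ranges were 0.67 to 1.11 for Lyz2, -0.26 to 0.14 for Cd74, 0.77 to 1.32 for C1qa and 0.82 to 1.48 for C1qb. For differences in log2 ratio to Csf1r they were 2.06 to 2.21 for Cd68, -0.98 to -0.74 for Cd163, -0.12 to 0.043 for Mrc1, 0.29 to 0.44 for Lyz2, 0.50 to 0.57 for C1qa, 0.53 to 0.71 for C1qb and 0.18 to 0.35 for C1qc, and for C1qa to C1qb -0.19 to -0.026, C1qc to C1qb -0.41 to -0.30 and Cd163 to Mrc1 -0.91 to -0.72. Without control replicate 1 or 2, 7 and 8 of the 12 ratios passed 0.05 after adjustment (0.0490 and 0.0429, exact permutation), as 7 and 8 ratios then reached p = 0.0286, the smallest that 3 against 4 libraries can give. With Cd68 as the denominator, which carries the rise of Cd68 into every ratio, the differences were -3.03 for Cd163, -2.19 for Mrc1, -1.79 for Lyz2, -1.92 for Itgam, -2.76 for Cd74, -1.62 for C1qa, -1.51 for C1qb and -1.87 for C1qc. A pseudocount of 1 changed no call on the ratios.

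The replicate numbers of the 2 groups were checked as pairs: deviations of libraries with the same number correlated at 0.118 (number 1), 0.0031 (2), 0.4222 (3) and 0.138 (4), with controls 1, 3 and 4, but not control 2, correlating best with their own number. As 1 of the 4 pairs was under 0.1, the libraries were not treated as pairs. With the number as a replicate block, 1 marker gene was called higher, and Cd68 was at 2.64. The block moved the genes called higher from 8 to 12 in the repair list, from 2 to 4 in the CSF1 list, from 0 to 2 among adipocyte markers and from 2 to 1 among monocyte genes, and the genes called lower from 1 to 2 among monocyte genes and from 1 to 0 among neutrophil markers. The exact paired sign-flip test of the ratios, which cannot go below p = 0.125 with 4 pairs, gave adjusted p of 0.214 or more. The low counts of Cd68 and Itgam in the controls, 24 to 86, limit the precision of their folds, and lists with few tested genes, such as those of B, T and neutrophil cells, are too small to describe those cells.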
